A study of Mus musculus with 4 samples.

Results

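The mRNA decay and deadenylation machinery was followed through 44 genes, taken by symbol for their known roles, with earlier results of these data known. These were 10 subunits of the Ccr4-Not complex, 3 other deadenylase genes, 11 genes of the RNA exosome and its nucleases, 7 decapping genes, 2 exonuclease genes that work from the 5′ end, and 11 genes for factors that recruit this machinery to chosen mRNAs. All 44 were among the 24421 genes listed, and none was lost to the filter on low values (1 FPKM or more in 2 or more of the 4 samples), which left 10776 genes for testing. FPKM is the number of fragments per kilobase of gene, scaled to sample depth, so levels of different genes can be set side by side on it. The RNA came from CD69+CD4+CD8+ (CD69+DP) thymocytes, sorted by FACS from the thymus of 6-week-old mice on a C57BL/6 background. The 2 control samples were Foxa1fl/fl Foxa2fl/fl without the CD4Cre transgene, and the 2 Foxa1/2cKO samples were Foxa1fl/fl Foxa2fl/fl with CD4Cre, which is active in DP cells. Both floxed alleles were therefore shared by all 4 samples, and an effect of the transgene itself cannot be told apart from loss of the alleles. Mice differed between samples, and the comparison asked how the transcriptome of cells undergoing positive selection differs when *Foxa1* and *Foxa2* are deleted. Both genes were listed at 0 in every sample, so their level is no check of the genotypes.

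Most mRNAs begin their decay when the poly(A) tail is shortened, by Pan2-Pan3 and then by Ccr4-Not. The body is then degraded from the 3′ end by the exosome, or the cap is removed by Dcp2 and Xrn1 degrades the RNA from the 5′ end. Factors that bind AU-rich elements, stem-loops or microRNA complexes bring these enzymes to particular mRNAs, and in T cells they limit cytokine and cell-cycle transcripts.

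The divisors by which the FPKM of the samples had been scaled ranged from 10796528 to 14968316, and the members had between 193 and 8277 recovered reads per sample. The scaling was not alike in all samples. In Foxa1/2cKO 2 the recovered reads of all genes (11262197) exceeded the divisor (11093927), while in the other samples they were below it. Its FPKM summed to 382436, against 366871 to 372671 in the others. Foxa1/2cKO 2 stood apart: on the first principal component (65.2% of the variance) it lay at 28.5, against -7.42, -10.2 and -11.0 for control 1, control 2 and Foxa1/2cKO 1. The 10 DP markers summed to 2825 and 2915 FPKM in the controls, against 2920 and 3571 in Foxa1/2cKO 1 and 2, and none was at 0. Of these, *Ptcra* was at 11.2 and 11.9 in the controls, against 7.44 and 3.23 in Foxa1/2cKO, and was the 1 marker with an unadjusted limma p under 0.05. *Cd8b1* was at 592 and 613 in the controls, against 668 and 974. The 6 cycling genes summed to 501 and 516 FPKM in the controls, but 560 (559.6) for Foxa1/2cKO 1 and 240.4 for Foxa1/2cKO 2, and the 6 mature SP genes to 271, 308, 308 and 185. In the same order of samples, the 5 B cell genes summed to 75.6, 50.3, 104 and 54.0, and the 7 myeloid genes to 115, 102, 116 and 137. Of the thymic epithelial genes *Foxn1* did not exceed 0.0552 FPKM. *Epcam* was at 2.76 and 2.89 in the controls, against 3.86 and 3.37 in Foxa1/2cKO. The 4 globin genes were at 0, and *Alas2* was at 0.608, 1.08, 2.62 and 0.911. In bulk RNA, fewer cells of a type and less RNA per cell cannot be told apart.

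Most genes of the decay machinery differed little on average between control and Foxa1/2cKO CD69+DP cells. *Xrn1*, the main cytoplasmic 5′-to-3′ exonuclease, was 1.53-fold higher in Foxa1/2cKO, and 4 exosome subunit genes, *Exosc9*, *Exosc1*, *Exosc7* and *Exosc2*, were at 0.80 to 0.82 of the control level, with no overlap between the groups. By limma with Benjamini-Hochberg adjustment, 0 members passed at 0.05 (the smallest adjusted p was 0.863), where 0.00928% of all genes tested did. An unadjusted p under 0.05 was found for 3 of the 44 members, against 4.55% of all genes, which is close to the background. Of the 3, 1 was higher in Foxa1/2cKO, against 2.39% of all genes, and 2 were lower, against 2.15%. Limma-voom on recovered reads gave 4 such members, where 5.18% of all genes passed, and 0 members or other genes with an adjusted p under 0.05. In 13 members each Foxa1/2cKO sample exceeded each control (18.9% of all genes), and in 7 each was below (17.8% of all genes). The log2 fold changes of the members ranged from -0.30 to 0.59 with a median of 0.02, beside a median of 0.01 for all genes tested.

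The data bounded most of the differences. The 95% interval of the log2 fold change stayed within 0.5 of 0 in 32 of the 44 members, and 58.1% of all genes met the same bound, which was chosen after the values were seen. It stayed within 1 of 0 in 42 members, the exceptions being *Btg2* and *Edc3*. These intervals rest on 2 residual and 2.69 prior degrees of freedom, and a p that misses the threshold does not show that the levels were equal. Fold changes on log2(FPKM + 1) slightly understate the difference of the lowest members. The median absolute log2 fold change was 0.10 for the members and 0.11 for all genes tested. The median control level was 34.0 FPKM for the members and 14.9 for all genes tested, so the shares within 0.5 of 0 are not compared at like levels.

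**Figure D1:**
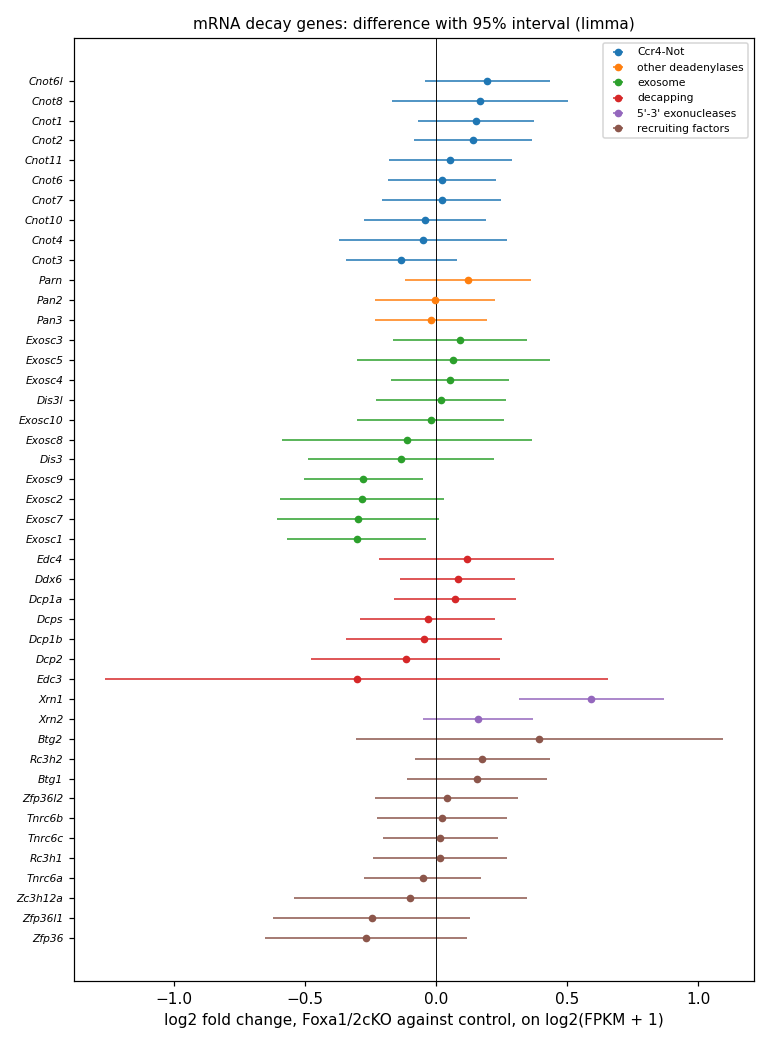
Log2 fold change of each of the 44 genes on the log2(FPKM + 1) scale, Foxa1/2cKO against control (x axis), with the 95% interval from limma as a bar, ordered by role and coloured by it. The interval of *Xrn1* lies wholly to the right of 0, those of *Exosc9* and *Exosc1* wholly to the left, and those of *Edc3* and *Btg2* are the widest.

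*Xrn1* (chromosome 9 of mm10, 95954750 to 96057806) degrades decapped mRNA in the cytoplasm. Controls 1 and 2 had 20.5 and 17.7 FPKM and Foxa1/2cKO 1 and 2 had 29.5 and 28.8, from 1684, 1319, 1753 and 1758 reads. Both Foxa1/2cKO samples lay well above both controls and differed little from each other. On average controls had 19.1 ± 1.97 FPKM and Foxa1/2cKO samples 29.2 ± 0.502 (SD, n = 2 each). The log2 fold change was 0.59 (standard error 0.11, 95% interval 0.32 to 0.87, limma's Benjamini-Hochberg adjusted p = 0.863), the gene ranked 26 by its p among the genes tested, and leaving out each sample in turn kept it between 0.49 and 0.69. The length behind its FPKM was 5501 bases, shorter than its longest annotated transcript of 10256 bases. Exons of *C78334* and *Gm16794* overlap it on the other strand, and the methods give no strand setting for the gene counts, while the study's separate exon counting ignored strand.

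*Xrn2* (chromosome 2, 147012755 to 147078000), the nuclear enzyme that also acts in transcription termination, was higher by less. Its FPKM was 55.9 and 54.8 in the controls, against 62.7 and 61.3 in the Foxa1/2cKO samples. The groups did not overlap, and the log2 fold change was 0.16 (standard error 0.08, 95% interval -0.05 to 0.37). Within each sample *Xrn2* was above *Xrn1*, by 2.73 and 3.10 times in the controls and by 2.12 and 2.13 times in Foxa1/2cKO. The ratios between members were not tested.

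The exosome is a ring of inactive RNase-like subunits with a cap of RNA-binding subunits, to which the nucleases encoded by *Dis3* and *Exosc10* attach. The 11 members had a median log2 fold change of -0.11, with 7 lower and 4 higher in Foxa1/2cKO, and each Foxa1/2cKO sample was below each control in 4 of them (17.8% of all genes) and above each in 1 (18.9%). *Exosc9* (chromosome 3, 36552606 to 36565727), a ring subunit, was at 21.3 and 22.5 FPKM in the controls and at 17.9 in both Foxa1/2cKO samples, from 516, 494, 313 and 321 reads. The Foxa1/2cKO samples were alike and below both controls, with a log2 fold change of -0.28 (standard error 0.09, 95% interval -0.50 to -0.05, limma's Benjamini-Hochberg adjusted p = 0.863). Exons of *Ccna2*, a cyclin gene, overlap it on the other strand. *Ccna2* was at 56.0, 59.95, 54.8 and 20.1 FPKM in the same order of samples, lowest in Foxa1/2cKO 2, and its part in the values of *Exosc9* was not tested.

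*Exosc1* (chromosome 19, 41922978 to 41933423), a cap subunit, was at 15.3 and 15.8 FPKM in the controls, against 13.1 and 11.7 in Foxa1/2cKO 1 and 2. This gave a log2 fold change of -0.30 (standard error 0.10, 95% interval -0.57 to -0.04, limma's Benjamini-Hochberg adjusted p = 0.863), and leaving out each sample kept it between -0.38 and -0.23. *Exosc7* (chromosome 9, 123113231 to 123136129), a ring subunit, was at 26.0 and 27.0 in the controls, against 23.4 and 19.5 in Foxa1/2cKO 1 and 2. The log2 fold change of *Exosc7* was -0.30 (95% interval -0.61 to 0.01) and -0.17 without Foxa1/2cKO 2, so its difference came more from that sample. The cycling genes were also low in Foxa1/2cKO 2, and their part in the difference was not tested. *Exosc2* (chromosome 2, 31670715 to 31681352), a cap subunit, was at 23.1 and 26.5 in the controls and lower in Foxa1/2cKO 1 (18.8) than in Foxa1/2cKO 2 (21.6). The difference on the log2 scale was -0.28 with all samples (95% interval -0.60 to 0.03) and -0.19 without Foxa1/2cKO 1. In its longest annotated transcript, 15.3% of the 50-base stretches are found too in *Gm13427*, which overlaps it on the other strand.

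The other 7 exosome members overlapped between the groups, except *Exosc4*, whose samples were at 18.7 and 19.1 (control) and 19.4 and 20.1 FPKM (Foxa1/2cKO). *Exosc10* (chromosome 4, 148558419 to 148582401), the nuclear nuclease and the most abundant of the 11, was at 57.9, 57.0, 52.4 and 61.2 FPKM, with both controls between the Foxa1/2cKO samples. *Exosc8* was at 42.0 and 43.8 in the controls, against 47.3 and 33.2 in Foxa1/2cKO 1 and 2. The Foxa1/2cKO samples of *Exosc8* thus lay on opposite sides of the controls. *Dis3*, the main catalytic subunit, was at 14.9, 16.0, 15.7 and 12.5, and its paralog *Dis3l* at 9.09, 9.33, 9.47 and 9.22. The samples of *Dis3l* lay close together, with means of 9.21 ± 0.173 and 9.35 ± 0.180 (SD, n = 2 each). *Exosc6*, the ring subunit that is not among the 44, was at 17.9, 16.0, 18.9 and 21.9, with a log2 fold change of 0.25 (95% interval -0.05 to 0.56). Lower levels were therefore not seen in every subunit gene.

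**Figure D2:**
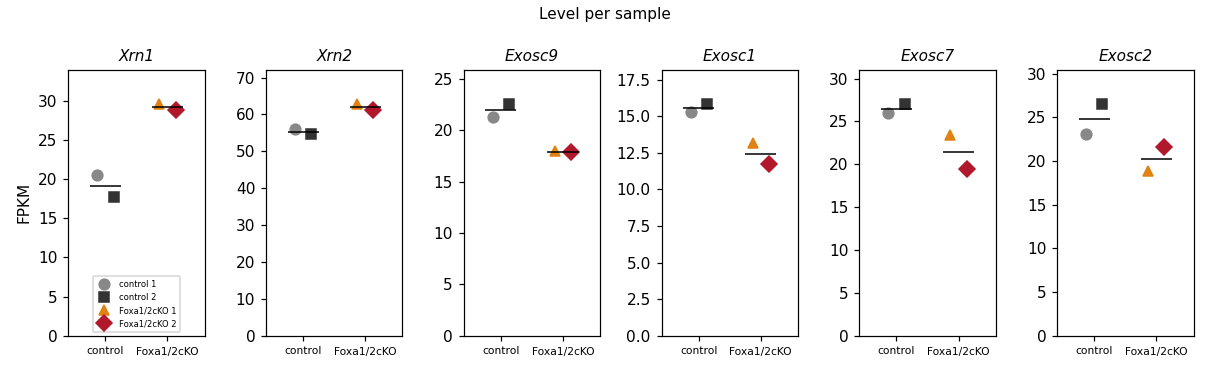
FPKM of *Xrn1*, *Xrn2*, *Exosc9*, *Exosc1*, *Exosc7* and *Exosc2* in each sample (y axes from 0, 1 symbol per sample, the line is the group mean of 2 samples). Both Foxa1/2cKO samples lie above both controls for *Xrn1* and *Xrn2* and below both for the 4 exosome genes, and the gap is widest for *Xrn1* (19.1 against 29.2 on average).

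Promoter sequence was available for 37 of the 44 genes (RefSeq, GRCm38.p6, 250 bases before to 50 after the start, 46 promoters in all). They were rich in CpG, with a median of 24.5 CpG per promoter against 7 over all 32544 promoters of the same length. The forkhead motif TGTTTAC, searched on both strands, was found in 2 of the 46 (*Btg1* and *Exosc2*), and 3.66% of all promoters hold it. The ETS motif CCGGAAG, also searched on both strands, was found in 12 of the 46, and 8.91% of all promoters hold it. This motif itself holds a CpG and the 46 are richer in CpG, so the share over all promoters is not a like background. The letters of the motifs do not overlap each other, and a match is a description of these letters only. The promoters of *Xrn1* and *Exosc1*, which had an unadjusted p under 0.05 as did *Exosc9* (not among the 37), and of the 2 members with the forkhead motif are shown 5′ to 3′ on the strand of the gene, with the forkhead motif in capitals (GTAAACA where it is on the other strand). They lie at chr9:95954510-95954809 (plus strand), chr19:41933265-41933564 (minus), chr2:31670465-31670764 (plus) and chr10:96616751-96617050 (plus).
*Xrn1*: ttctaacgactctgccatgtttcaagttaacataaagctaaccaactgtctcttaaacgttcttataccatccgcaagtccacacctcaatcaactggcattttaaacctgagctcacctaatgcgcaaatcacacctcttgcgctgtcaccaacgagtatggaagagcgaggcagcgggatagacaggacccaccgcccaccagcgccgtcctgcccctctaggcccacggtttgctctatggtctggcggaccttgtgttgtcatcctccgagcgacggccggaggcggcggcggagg
*Exosc1*: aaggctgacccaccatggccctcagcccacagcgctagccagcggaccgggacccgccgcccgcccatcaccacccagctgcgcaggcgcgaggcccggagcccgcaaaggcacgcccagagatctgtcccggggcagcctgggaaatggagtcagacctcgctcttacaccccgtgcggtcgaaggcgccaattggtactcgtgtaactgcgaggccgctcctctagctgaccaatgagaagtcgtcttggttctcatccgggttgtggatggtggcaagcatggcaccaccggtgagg
*Exosc2*: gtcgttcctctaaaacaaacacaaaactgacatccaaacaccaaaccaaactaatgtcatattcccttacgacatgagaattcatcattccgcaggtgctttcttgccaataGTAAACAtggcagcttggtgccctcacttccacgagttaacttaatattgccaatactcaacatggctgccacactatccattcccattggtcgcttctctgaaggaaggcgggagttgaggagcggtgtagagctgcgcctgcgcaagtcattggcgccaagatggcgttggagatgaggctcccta
*Btg1*: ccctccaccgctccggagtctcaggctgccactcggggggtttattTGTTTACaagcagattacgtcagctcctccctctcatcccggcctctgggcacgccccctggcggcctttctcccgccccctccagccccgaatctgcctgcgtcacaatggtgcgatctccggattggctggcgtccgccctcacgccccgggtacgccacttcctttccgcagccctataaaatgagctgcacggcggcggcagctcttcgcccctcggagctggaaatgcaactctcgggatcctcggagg

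Neither motif was found in the promoters of *Xrn1* and *Exosc1*. *Exosc2* and *Btg1* differed in direction, *Exosc2* being lower and *Btg1* higher in both Foxa1/2cKO samples.

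The Ccr4-Not complex, whose scaffold is *Cnot1*, had a median log2 fold change of 0.04 over 10 subunit genes. Of them, 0 had an unadjusted limma p under 0.05, where 4.55% of all genes did. Each Foxa1/2cKO sample was above each control in 5 of the 10 (18.9% of all genes) and below each in 1 (17.8%). Among the 5 were *Cnot8* and *Cnot6*, whose groups were nearly tied. *Cnot8* was at 61.31 FPKM in Foxa1/2cKO 1 against 61.29 in control 1. *Cnot6* was at 73.9 in Foxa1/2cKO 2 against 73.6 in control 2, with a log2 fold change of 0.02. Of the 10, 7 were higher and 3 lower in Foxa1/2cKO on average, with log2 fold changes between -0.13 and 0.20. *Cnot2* (chromosome 10, 116485160 to 116581900), part of the NOT module and the most abundant subunit gene, was at 85.6 and 88.1 FPKM in the controls, against 92.6 and 99.2 in Foxa1/2cKO. *Cnot1* was at 66.0, 62.4, 70.1 and 72.9. For both genes each Foxa1/2cKO sample was above each control, by a log2 fold change of 0.14 (95% interval -0.08 to 0.37) for *Cnot2* and 0.15 (standard error 0.08) for *Cnot1*. With the length trend removed that of *Cnot1* was 0.09, and 10.05% of the 50-base stretches of its longest transcript occur in *4930513N10Rik* or *Gm6158*. *Cnot3*, the partner of *Cnot2* in that module, lay the other way, at 56.0 and 55.9 in the controls, against 49.9 and 52.1 in Foxa1/2cKO.

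The nuclease subunits come as paralog pairs. *Cnot6* and *Cnot6l* encode the Ccr4-type nuclease: *Cnot6* was at 73.2, 73.6, 75.3 and 73.9 FPKM, and *Cnot6l* (chromosome 5, 96070333 to 96164198) at 24.9, 24.7, 27.3 and 29.9. *Cnot6l* was higher in both Foxa1/2cKO samples, with a log2 fold change of 0.20 (standard error 0.09, 95% interval -0.04 to 0.44), and 0.13 once the trend with gene length was removed. The ratio of *Cnot6* to *Cnot6l* was 2.94 and 2.97 in the controls, against 2.76 and 2.47 in Foxa1/2cKO. *Cnot7* and *Cnot8* encode the Caf1-type nuclease, which Btg proteins bind. *Cnot8* was at 61.3, 60.0, 61.3 and 76.2 FPKM, high in Foxa1/2cKO 2 alone, and *Cnot7* at 36.1, 36.4, 35.4 and 38.2. The remaining subunit genes, *Cnot4*, *Cnot10* and *Cnot11*, had log2 fold changes between -0.05 and 0.06, and *Cnot4* was the least abundant member of all 44, with means of 8.40 ± 0.207 FPKM (control) and 8.11 ± 1.02 (Foxa1/2cKO; SD, n = 2 each).

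Among the other deadenylases, *Pan3* (chromosome 5, 147426208 to 147548501), the adaptor of Pan2, was at 56.2 and 58.7 FPKM in the controls, against 56.2 and 57.1 in Foxa1/2cKO. *Pan2*, the catalytic subunit, was at 35.0, 35.4, 33.8 and 36.5, and *Parn*, a deadenylase that also trims non-coding RNAs, at 18.6, 17.6, 19.2 and 20.4. The groups overlapped for *Pan2* and *Pan3*. Their log2 fold changes were 0.00 (-0.0037) and -0.02, with 95% intervals of -0.23 to 0.22 and -0.23 to 0.19, and that of *Parn* was 0.12 (standard error 0.09).

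The 7 decapping genes had a median log2 fold change of -0.03, which was positive with any 1 sample left out (0.02 to 0.11). Of the 7, 0 had an unadjusted limma p under 0.05, where 4.55% of all genes did. *Ddx6* (chromosome 9, 44602983 to 44640731), the helicase that links deadenylation to decapping and the most abundant of them, was at 87.0 and 83.8 FPKM in the controls, against 88.1 and 92.9 in Foxa1/2cKO. It differed by 0.08 on the log2 scale (95% interval -0.14 to 0.30), by 0.04 with the length trend removed and by 0.04 without Foxa1/2cKO 2. *Dcp2*, the decapping enzyme, was at 11.9, 13.4, 12.9 and 10.5, and its activators *Dcp1a* and *Dcp1b* at 24.9, 23.2, 24.9 and 25.8 and at 11.2, 11.7, 10.2 and 11.9. *Edc4*, the decapping scaffold, was at 42.4, 38.2, 39.8 and 48.1, and *Dcps*, which hydrolyses the cap left by 3′ decay, at 31.6, 34.9, 33.7 and 31.3. In 2 of the 7 genes, *Ddx6* and *Dcp1a*, both Foxa1/2cKO samples lay just above both controls, where 18.9% of all genes had both above. The groups overlapped for the others.

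*Edc3* (chromosome 9, 57708540 to 57750163), an enhancer of decapping, separated the controls and not the genotypes. It was at 26.7 FPKM in control 1 and 12.3 in control 2, from 1338 and 560 reads, and at 13.2 and 16.2 in Foxa1/2cKO. Control 1 was thus far above the other three samples. Of the 6637 genes with a control mean of at least 10 FPKM, 3 differed between the controls by more than 1 on the log2(FPKM + 1) scale, *Edc3* among them. The log2 fold change of -0.30 (standard error 0.37, 95% interval -1.26 to 0.66) turned to 0.23 without control 1 and -0.83 without control 2. *Clk3* overlaps *Edc3* on the other strand and shares 21.1% of the 50-base stretches in the longest *Edc3* transcript. *Clk3* was at 131 and 126 FPKM in the controls, against 114 and 167 in Foxa1/2cKO, and its part in the values of *Edc3* was not tested.

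The recruiting factors held the 4 highest levels of the 44 in control. *Btg2* (chromosome 1, 134074865 to 134079155) and *Btg1* are antiproliferative genes whose proteins bind the Caf1-type nuclease and speed deadenylation in resting T cells. *Btg2* was at 140 (139.9) and 124 FPKM in the controls, against 133 and 226 in Foxa1/2cKO 1 and 2. It was high in Foxa1/2cKO 2 alone, and the log2 fold change of 0.39 (standard error 0.27, 95% interval -0.30 to 1.09) was 0.02 without that sample and 0.77 without Foxa1/2cKO 1. *Btg1* was at 87.8, 91.2, 107 and 93.4, high in Foxa1/2cKO 1. The ratio of *Btg2* to *Btg1* was 1.59 and 1.36 in the controls, against 1.25 and 2.42 in Foxa1/2cKO 1 and 2.

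*Zfp36*, *Zfp36l1* and *Zfp36l2* encode zinc finger proteins that bind AU-rich elements and recruit Ccr4-Not. *Zfp36* (chromosome 7, 28376784 to 28379228) was at 106 and 91.2 FPKM in the controls, against 73.0 and 91.1 in Foxa1/2cKO, low in Foxa1/2cKO 1 alone. *Zfp36l1* (chromosome 12, 80107760 to 80113013) was at 101 and 91.8 in the controls, against 91.3 and 71.7 in Foxa1/2cKO 1 and 2, low in Foxa1/2cKO 2 alone. *Zfp36l2* was at 72.7, 66.5, 67.5 and 75.9, with overlap. For *Zfp36* and *Zfp36l1* the groups just failed to overlap and the log2 fold changes were -0.27 (95% interval -0.65 to 0.12) and -0.25 (95% interval -0.62 to 0.13). Leaving out the lower Foxa1/2cKO sample brought them to -0.11 and -0.07. Of the 50-base stretches of the longest *Zfp36l1* transcript, 56.9% also occur in *Zfp36l1-ps* or *Gm26669*, so its level is uncertain.

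*Btg2* and *Zfp36* are induced with the immediate early genes by TCR signalling and by cell handling. *Egr1* was at 167, 137, 117 and 196 FPKM in the same order of samples, and *Nr4a1* at 206, 183, 183 and 217. Both were highest in Foxa1/2cKO 2, where *Btg2* was highest too, and *Egr1* was lowest in Foxa1/2cKO 1, where *Zfp36* was lowest. Other genes of the list did not follow them: *Dusp1*, the 1 with an unadjusted limma p under 0.05, was at 15.6, 14.98, 12.7 and 10.3, and *Junb* at 61.2, 59.9, 54.7 and 51.3, both lowest in Foxa1/2cKO 2. Of the 17 genes tested, 5 had both Foxa1/2cKO samples below both controls (17.8% of all genes) and 1 above (18.9%). Summed over the 22 genes of the early list, the levels were 903, 838, 805 and 939 FPKM, and *Hspa1a* did not exceed 0.395. Among the members, *Zfp36* was not highest where *Egr1* was: it was at 106 in control 1 and at 91.1 in Foxa1/2cKO 2. *Zc3h12a*, which is induced with these genes too, was lowest in Foxa1/2cKO 2 (12.4). The part of the early genes in the levels of *Btg2*, *Zfp36* and *Zc3h12a* was not tested.

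Of the remaining recruiting factors, *Zc3h12a* (Regnase-1, an endonuclease of stem-loops) was at 13.2, 16.9, 15.5 and 12.4 FPKM. *Rc3h1* and *Rc3h2* encode Roquin-1 and Roquin-2, which bind the same stem-loops: *Rc3h1* was at 14.9, 14.5, 15.6 and 14.2, and *Rc3h2* at 13.7, 14.7, 15.5 and 16.9. *Rc3h2* was higher in both Foxa1/2cKO samples, by 0.18 on the log2 scale (standard error 0.10), or 0.11 with the length trend removed. *Tnrc6a*, *Tnrc6b* and *Tnrc6c*, which tie Argonaute to the deadenylases, had log2 fold changes of -0.05, 0.02 and 0.02, each with a standard error of 0.08 to 0.09. The 3 *Tnrc6* genes thus stayed at like levels, with control means of 39.5, 24.3 and 42.6 FPKM.

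The Foxa1/2cKO samples did not depart from the controls alike in every member. Across the 44 members, the SD of the log2 difference was 0.22 between the Foxa1/2cKO samples and 0.19 between the controls, beside 0.40 and 0.20 over all genes tested. Without *Edc3* the control value was 0.11, a value chosen after the data were seen. No gene was left out of the Foxa1/2cKO value, which includes *Btg2* (0.76, Foxa1/2cKO 2 minus 1) and *Exosc8* (-0.50). The values 0.11 and 0.22 are therefore not alike in the genes they cover. With Foxa1/2cKO 1 left out, limma with Benjamini-Hochberg adjustment called 9 members at 0.05, as it did 23.7% of all genes, and 17 had an unadjusted p under 0.05, as did 39.2% of all genes. That fit sets Foxa1/2cKO 2 alone against the controls and assumes that it varies as they do. The 9 were *Xrn1*, *Exosc9*, *Exosc1*, *Exosc7*, *Exosc8*, *Zfp36l1*, *Btg2*, *Cnot6l* and *Cnot8*. With Foxa1/2cKO 2 left out, 8 members passed 0.05 unadjusted and 0 after adjustment, as did 17.5% and 0.176% of all genes. Against the same controls, *Xrn1* differed by 0.61 and 0.58 on the log2 scale in Foxa1/2cKO 1 and 2, and *Exosc9* by -0.27 and -0.28, while *Exosc8* differed by 0.14 and -0.36.

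**Figure D3:**
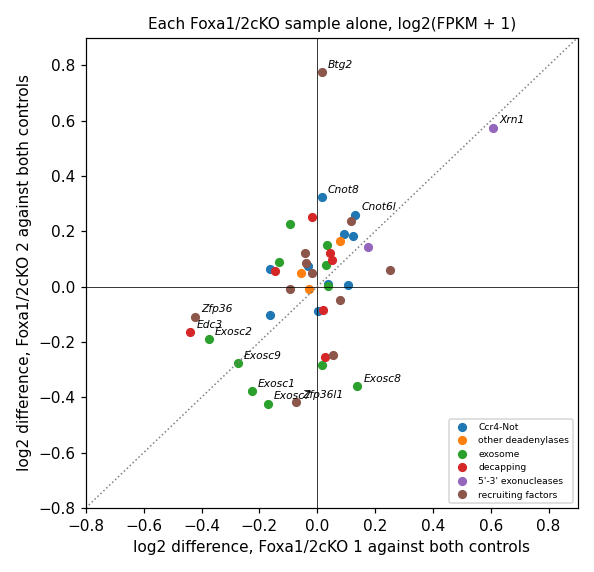
Log2 difference of Foxa1/2cKO 1 alone (x axis) and of Foxa1/2cKO 2 alone (y axis) from both controls, on log2(FPKM + 1), for the 44 genes coloured by role; the dotted line marks equal differences, and both axes share the controls. *Xrn1* (0.61 and 0.58) and *Exosc9* (-0.27 and -0.28) lie close to the line, and *Btg2* (0.02 and 0.77) and *Exosc8* (0.14 and -0.36) far from it.

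The differences also ran with gene length. The 44 genes were between 555 and 17528 bases long by the length behind their FPKM, with a median of 3238.5 against 2750.5 for all genes tested, and the exosome genes were the shortest role (median 1622). The log2 fold change was positive in 15 of the 22 longer members and in 9 of the 22 shorter ones. Spearman's rho between length and log2 fold change was 0.33 over the 44 members and 0.14 over all genes tested, across genes of the same 4 libraries. With the trend removed, the fold change of *Xrn1* was 0.56, that of *Exosc9* -0.25, that of *Exosc1* -0.28, and the median of the exosome genes -0.08.

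**Figure D4:**
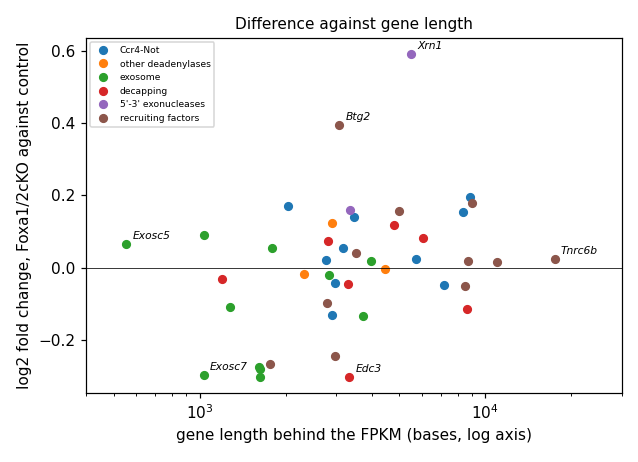
Log2 fold change of the 44 genes, Foxa1/2cKO against control on log2(FPKM + 1) (y axis), against the gene length behind the FPKM in bases (x axis, log scale), coloured by role. The exosome genes lie towards the short end (median 1622 bases) with a median of -0.11, and *Xrn1* (5501 bases) lies above every other gene.

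Of 66 symbols of other genes in the pathway, 59 were listed and 53 passed the filter. They include the poly(A)-binding proteins, Argonautes, Lsm proteins, the Ski complex and terminal uridylyltransferases. Of the 53, 26 were higher and 27 lower in Foxa1/2cKO on average, with a median log2 fold change of 0.00 (-0.0027). Of these, 0 had an unadjusted p under 0.05 from limma, where 4.55% of all genes did, 0 had an adjusted p under 0.05, and limma-voom on recovered reads gave 1 with an unadjusted p under 0.05. In 12 of them each Foxa1/2cKO sample exceeded each control (18.9% of all genes), and in 6 each was below (17.8%).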

How the data were processed

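CD69+DP thymocytes from 2 control and 2 Foxa1/2cKO samples were sequenced on an Illumina NextSeq. Reads had been aligned by the authors to mm10 (RefSeq annotation), with HTSeq in its union mode for counting, per their methods, and the labels also name TopHat and Picard. The values deposited by the authors are FPKM, by a step that is not given in the sources used here. Whole reads and gene lengths were recovered from the steps of the FPKM for 100% of the 16069 genes above 0, up to a common divisor; they came to between 10396605 and 14482365 reads per sample.

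limma 3.58.1 in R 4.3.3 was fitted on log2(FPKM + 1) over 10776 genes with a mean-variance trend, with Benjamini-Hochberg adjustment over all of them. The pipeline was tested on simulated data. The remaining steps ran in Python 3.11.15 with scipy 1.17.1. Samples were sorted separately from different mice, and whether a sample pools mice is not clear from the methods, so p-values measure the spread between these samples. As the deposited unit is FPKM, the main test was limma on the log scale, and limma-voom on the recovered reads was an alternative.

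The members and lists were chosen with earlier results of these data known. The genes named in full (15) were those with an unadjusted p under 0.05, the 10 with the largest absolute fold change and the most abundant of each role; the others are given by role, and genes beyond this rule were named after their values were seen. Alternatives were a pseudocount of 0.1, no filter or a stricter one, upper-quartile scaling, equal FPKM totals, a replicate block, a loess correction for gene length with and without the block, no variance trend, limma-voom on recovered reads, and leaving out each sample. Gene coordinates come from RefSeq (GRCm38.p6, the assembly of mm10), and overlaps and shared 50-base stretches from GENCODE M21.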

Additional observations from a re-analysis of the deposited data

How the results depend on the processing

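The 3 members with an unadjusted p under 0.05 became 1 with the replicate block, alone (3.51% of all genes) and with length correction (3.08%), and 1 to 17 with a sample left out (8 without Foxa1/2cKO 2, 17 without Foxa1/2cKO 1, 1 without control 1). With an adjusted p under 0.05 there were 0 to 9, the 9 only without Foxa1/2cKO 1. The main fit used the group only, as the methods of the study name no block. Across genes, samples with the same replicate number did not deviate together (r = -0.059). With 2 samples a group, this r cannot show whether samples with the same number shared a sort. The block left *Xrn1* with an unadjusted limma p of 0.00477. The median log2 fold change of the members was -0.012 with length correction, with and without the block (0.0078 to 0.053 with a sample left out). With limma-voom it was -0.016, beside -0.030 for all genes. With limma-voom the median was 0.0059 for Ccr4-Not, -0.15 for the exosome and -0.018 for the recruiting factors, which were at -0.071 with length correction, with and without the block. With a sample left out the medians ranged from 0.026 to 0.070 for Ccr4-Not, -0.030 to 0.049 for the other deadenylases, -0.19 to -0.081 for the exosome, 0.021 to 0.11 for decapping (positive in each case, against -0.03 with all samples), -0.017 to 0.051 for the recruiting factors and 0.32 to 0.43 for the 5′-to-3′ exonucleases. *Edc3* ranged from -0.83 to 0.23, *Pan3* from -0.051 to 0.012 and *Exosc10* from -0.13 to 0.090 with a sample left out. The other 12 genes named by rule kept their direction under all these settings. Of the other pathway genes, 1 had an unadjusted p under 0.05 with no variance trend and with limma-voom and 0 to 26 with a sample left out (26 without Foxa1/2cKO 1, where 39.2% of all genes passed), and their median was -0.022 with upper-quartile scaling, -0.037 with limma-voom and -0.0083 to 0.024 with a sample left out. Of the mRNAs bound by the recruiting factors, 1 had an unadjusted p under 0.05 with no filter, and 0 to 15 with a sample left out (15 in that same fit). The causes were not tested. With 2 samples a group, the standard errors of 0.08 to 0.37 limit what could be detected.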

Other observations

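The mRNAs known to be bound by Zfp36-family proteins, Regnase-1 or Roquin were followed beside their regulators. All 22 of the list were listed and 18 passed the filter. Of the 18, 15 were lower and 3 higher in Foxa1/2cKO on average, with a median log2 fold change of -0.22 beside 0.01 for all genes tested. Of these, 0 had an unadjusted p under 0.05 from limma or from limma-voom on recovered reads, where 4.55% and 5.18% of all genes did. In 7 of the 18 each Foxa1/2cKO sample was below each control (17.8% of all genes), and in 0 each was above (18.9%). The median was -0.47 without Foxa1/2cKO 1 and -0.013 without Foxa1/2cKO 2, so the shift was seen where Foxa1/2cKO 2 was kept. *Ccnd2*, a D-type cyclin, was at 58.5 and 61.5 FPKM in the controls, against 67.4 and 19.9 in Foxa1/2cKO 1 and 2. *Myc* was at 53.5, 53.97, 52.4 and 20.7 in the same order, and *E2f2* at 64.7, 66.8, 63.7 and 29.1. *Notch1*, a target of Zfp36l1 and Zfp36l2 in thymocytes, was at 45.7, 44.7, 48.4 and 31.8. These genes, named with *Ccnd3* after their values were seen, were low in the sample in which the cycling genes (240.4 FPKM summed, against 501 to 560 (559.6) in the others) were low, and the part of either in the other was not tested. *Ccnd3*, the most abundant of the list, was lower in both Foxa1/2cKO samples, with 414 and 437 FPKM in the controls against 379.6 and 380.4. Its log2 fold change was -0.16, with a 95% interval of -0.39 to 0.07.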
